A study of Mus musculus with 12 samples.

Results

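Nucleoporins, the proteins that build nuclear pores, and the receptors that carry cargo through those pores were followed at the RNA level in mouse germinal vesicle (GV) oocytes. Members were chosen by gene symbol: the Nup and Nupl families, the importins and exportins named Kpna, Ipo, Tnpo and Xpo, and *Kpnb1*, *Cse1l*, *Ran*, *Rangap1*, *Ranbp1*, *Ranbp2* and *Tpr*. This rule found 53 of the 24259 gene symbols measured, and 52 of them fell into 10 groups by role. The remaining symbol, *Nup62-il4i1*, joins *Nup62* to its neighbour and was listed at 0 in all 12 libraries. Pore genes with other names, among them *Pom121*, *Seh1l* and *Rae1*, were kept apart as a separate list.

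The oocytes came from WT mice and from KO mice homozygous for the *Lsm14b* tm1a(KOMP)Mbp allele, a reporter-tagged insertion kept on C57BL/6J. LSM14B is an RNA-binding protein of oocyte ribonucleoprotein (RNP) particles. All mice were 3 weeks old and had received 5 IU of pregnant mare serum gonadotropin 46 h earlier, and all oocytes were handled in cycloheximide, which holds ribosomes on mRNA. Lysate of about 1500 pooled oocytes was separated on a sucrose gradient, and RNA was sequenced from the RNP pool (fractions 1 to 10) and the polysome pool (fractions 11 to 28). There were 3 libraries for each genotype and pool. No label says that replicates were separate groups of animals, so the p-values measure the spread between these libraries, which may be technical.

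Levels are given in FPKM, which scales fragments to transcript length and library size, so a level is a share of 1 pool's RNA and not an amount per oocyte. In such bulk samples fewer cells of a type and less RNA per cell cannot be told apart. Depth, estimated from the steps between low values, was about 4820000 to 7840000 fragments per library, and 1 FPKM over an effective length of 4 kb then stood for about 19.3 to 31.4 fragments. *Lsm14b* itself was at 34.6, 29.3 and 27.4 FPKM in the WT RNP pool and at 0.893, 0.0627 and 0 FPKM in the KO RNP pool. In the polysome pool it was at 11.3, 15.3 and 13.2 FPKM in WT and at 0.260, 0 and 0.0876 FPKM in KO. The genotypes did not overlap in either pool (exact permutation test, two-sided, p = 0.1 in each, the smallest that 3 against 3 libraries allow). All 10 oocyte markers were detected in every library, and their summed level was 23779 to 25296 FPKM in WT polysome libraries and 28489 to 31074 FPKM in KO polysomes. The 12 granulosa and cumulus markers also summed higher in KO, at 86.4 to 110 FPKM against 27.9 to 76.3 FPKM in polysomes and at 43.2 to 65.3 FPKM against 31.3 to 35.6 FPKM in the RNP pool. Of these 12 markers 6 were at 0 in all WT RNP libraries, 3 in all WT polysome libraries and 1 in all libraries of each KO pool (*Foxl2* in KO polysomes), and the part of these cells in the results below was not tested.

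A nuclear pore is an eightfold-symmetric channel in the nuclear envelope. Scaffold rings hold flexible nucleoporins rich in phenylalanine-glycine repeats, which fill the channel and let receptors pass. Importins bind cargo in the cytoplasm and release it in the nucleus on meeting Ran loaded with GTP, and exportins bind cargo together with Ran-GTP and release it outside when RANGAP1 triggers GTP hydrolysis. The GV is the large nucleus of an oocyte arrested in meiotic prophase. Its envelope and pores come apart when meiosis resumes and are rebuilt in the embryo, largely from components and mRNAs stored in the oocyte.

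Sequences at the 3′ end bear on a stored mRNA, because the cytoplasmic polyadenylation element TTTTAT, near the poly(A) signal, is known to govern poly(A) tail length and translation in oocytes. On the longest protein-coding transcript of each gene in GENCODE M21, TTTTAT stood on the transcript strand in the last 100 bases of 9 of 37 tested members with a 3′ untranslated region that long (24.3%), against 15.3% of all genes tested. The signal AATAAA stood in the same window of 70.3% of these members and of 66.4% of all genes. In *Nup35*, *Nup54*, *Nup88* and *Kpnb1* TTTTAT lay after the last AATAAA of the window. It lay before that signal in *Nup37*, *Nup62*, *Nup98* and *Ipo8*, and the window of *Ipo5* held no AATAAA. The counts of TTTTAT took no account of this order. The windows below are shown for *Nup35*, *Nup37*, *Nup54* and *Nup98*, which were called in at least 1 comparison, and for *Nup62* and *Ipo8*, which led their roles by level and were called in none, 5′ to 3′ on the transcript strand of GRCm38, with the element in capitals.
*Nup35*, chr2:80658886-80658902, plus strand: tgtcaatTTTTATgtgc
*Nup37*, chr10:88178305-88178324, plus strand: tccttatTTTTATatcaaac
*Nup54*, chr5:92415540-92415556, minus strand: tttgtaaTTTTATgtaa
*Nup62*, chr7:44830715-44830734, plus strand: atgtctaTTTTATttctctg
*Nup98*, chr7:102119484-102119503, minus strand: taaaggtTTTTATtaaaaaa
*Ipo8*, chr6:148770721-148770740, minus strand: caggaacTTTTATgaatgta
No such letters were found in the window of *Kpna2*, *Kpna3*, *Kpna7* or *Ran*. A match is a string of letters and not a tested site, and the 3′ ends used in these oocytes were not measured here.

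LSM14B crosslink sites had also been mapped by LACE-Seq, which marks where a protein touches RNA. Among members, the entries used here hold 20-base sites in *Nup214*, *Tnpo1* and *Ipo8*. The paper reported far more bound mRNAs than these, and a member without an entry here is not thereby shown to be unbound. The site below is shown because it alone among these 20-base sites holds CCTCTC, written in capitals. It lies in the 3′ untranslated region of *Ipo8*, a receptor of the importin beta family.
*Ipo8*, chr6:148772019-148772038, minus strand: cagactttacccaCCTCTCg
CCTCTC occurred at a median of 0.37 per kb in the transcripts of tested members and at 0.33 per kb in those of all genes tested. Members tested had longer transcripts than all genes tested (median 4251 against 3042 bases) and shorter 3′ untranslated regions (741 against 1086 bases), which is a description of the list.

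Levels differed widely among members. Averaged over the 12 libraries, 21 members were at 10 FPKM or more, 3 of them above 100 FPKM, 18 were between 1 and 10 FPKM, and 14 were below 1 FPKM. *Nup62*, a repeat nucleoporin of the central channel, was the highest at 177 to 363 FPKM, and it supplied 79.2% of the summed level of its group. Its locus in the table is shared with *Atf5*, *Il4i1* and *Tbc1d17*, so part of its value is uncertain. *Kpna7*, the importin alpha typical of oocytes and early embryos, was next at 121 to 215 FPKM, and *Nup35*, a membrane-binding protein of the inner ring, lay at 72.5 to 148 FPKM.

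Within each role 1 or a few members stood above the rest. *Nup35* made up 80.2% of the inner ring's summed mean level, while *Nup205*, a large scaffold protein of the same ring, averaged 0.456 FPKM. In the basket, which faces the nuclear interior, *Nup50* made up 76.2% of the sum at a mean of 44.7 FPKM, and *Tpr*, which forms the basket's filaments, averaged 2.12 FPKM. On the cytoplasmic face and among the mobile nucleoporins, *Nup98* led with a mean of 82.5 FPKM, and in the Y complex, the outer scaffold, *Nup43* led with 15.0 FPKM. *Nup210* and *Nup210l*, integral membrane nucleoporins, averaged 0.385 and 0.00286 FPKM.

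Among the receptors *Ipo8* led the importin beta family with a mean of 59.0 FPKM, and *Kpnb1*, importin beta itself, averaged 32.6 FPKM. The exportins were all low: *Cse1l*, which returns importin alpha to the cytoplasm, led with a mean of 6.33 FPKM, and *Xpo1*, the main exportin for leucine-rich export signals, averaged 3.62 FPKM. *Xpo5*, which exports microRNA precursors, and *Xpot*, which exports tRNA, averaged 0.163 and 0.209 FPKM. *Ran* led its cycle with a mean of 26.8 FPKM. In all, 7 members stayed below 1 FPKM in every library, and 13 were tested in no comparison because they passed the filter on low values nowhere.

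**Figure D1:**
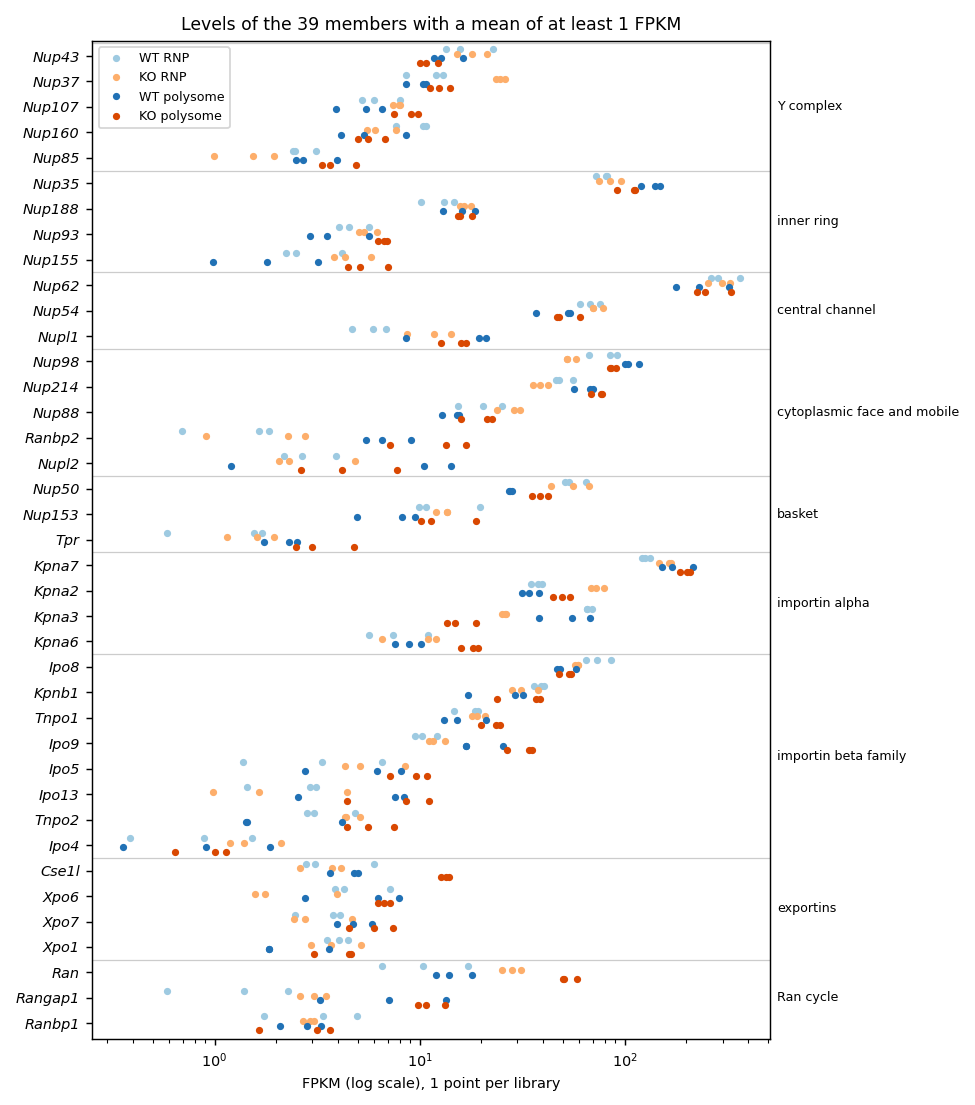
FPKM on a log axis for the 39 members with a mean of at least 1 FPKM, 1 point per library, coloured by genotype and pool and ordered by role and mean level. *Nup62* and *Kpna7* lie above 100 FPKM in all 12 libraries, and the KO polysome points of *Ran* and *Cse1l* stand apart from the other groups.

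Of 39 members tested in the polysome pool, *Ran* and *Cse1l* rose and *Kpna3* fell in KO against WT. Test results throughout are from limma on log2(FPKM + 1), with Benjamini-Hochberg adjustment over all genes and a call at an adjusted p under 0.05. Across all genes tested in this comparison 10.4% were called, so 3 of 39 members (7.69%) was no more than the background. By direction, 5.64% of all genes were called higher and 4.73% lower. The median log2 change of the tested members was 0.35 against 0.10 for all genes, and 32 of 39 members lay above 0 against 55.7% of all genes.

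*Ran*, the GTPase that gives transport its direction, lay at 12.01, 13.8 and 18.1 FPKM in the WT polysome libraries and at 50.4, 50.0 and 58.6 FPKM in KO polysomes. Every KO library was above every WT library, by 3.62-fold on the means. The log2 change was 1.80 ± 0.24 (SE; limma, adjusted p = 0.00405).

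*Cse1l* was at 3.65, 5.00 and 4.80 FPKM in the WT polysome libraries and at 13.5, 13.9 and 12.8 FPKM in KO polysomes, again without overlap and 2.98-fold higher on the means. In the fit the log2 change was 1.40 ± 0.35 (SE; limma, adjusted p = 0.0386). This call was lost when any 1 of the 6 libraries was left out, at log2 changes of 1.28 to 1.47 and adjusted p of 0.0537 to 0.144 (limma).

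*Kpna3*, an importin alpha of the branch it shares with *Kpna4*, was at 38.3, 67.8 and 55.3 FPKM in the WT polysome libraries and at 18.7, 14.9 and 13.6 FPKM in KO polysomes. The KO libraries were all below the WT libraries, at 0.293 times the WT mean. Its log2 change was -1.68 ± 0.27 (SE; limma, adjusted p = 0.00884), and the call held without each library in turn.

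No nucleoporin was called in the polysome pool, out of 20 tested with 15 above 0, although 10 members of all roles had an unadjusted p under 0.05 (26.3% of all genes did). The inner-ring scaffold gene *Nup155* had a log2 change of 1.17 ± 0.47 (limma, adjusted p = 0.152), and *Nup35* had -0.37 ± 0.16 (limma, adjusted p = 0.173). The 3 basket members lay at log2 changes of 0.44 to 0.75 and the 4 exportins tested at 0.25 to 1.40, all above 0. The 3 Ran cycle members and 7 of 8 importin beta members were also above 0, as were 32 of 39 members in all. Apart from *Cse1l*, the exportins were *Xpo7* at 0.25 ± 0.40, *Xpo6* at 0.30 ± 0.45 and *Xpo1* at 0.58 ± 0.44 (SE), and none of these was called. In the RNP pool the 4 exportins lay at -0.86 to -0.04 and none was called.

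**Figure D2:**
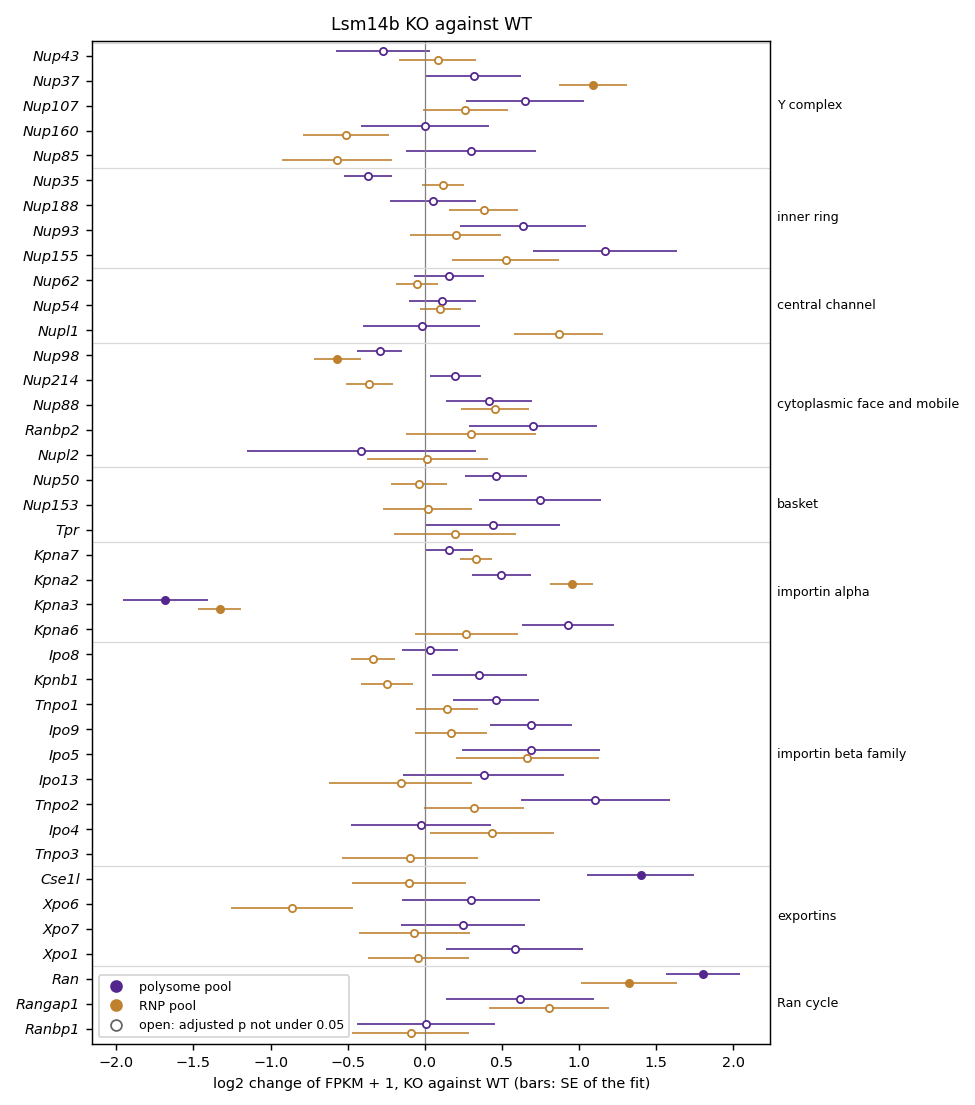
Log2 change of FPKM + 1 in KO against WT for every tested member, with the SE of the fit, in the polysome pool and the RNP pool, ordered by role. Filled points passed an adjusted p of 0.05: *Ran*, *Cse1l* and *Kpna3* in polysomes, and *Ran*, *Kpna2*, *Nup37*, *Kpna3* and *Nup98* in the RNP pool.

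In the RNP pool, which holds mRNA outside polysomes, *Kpna2*, *Nup37* and *Ran* rose and *Kpna3* and *Nup98* fell in KO, out of 40 members tested. Here 20.7% of all genes were called, 10.5% higher and 10.2% lower, so 5 of 40 members (12.5%) was below the background. The median log2 change was 0.11 for tested members and 0.05 for all genes.

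*Kpna2*, an importin alpha abundant in dividing and embryonic cells, was at 34.9, 37.7 and 39.5 FPKM in WT and at 72.3, 68.2 and 79.2 FPKM in KO. The groups were far apart, 1.96-fold on the means. This gave a log2 change of 0.95 ± 0.14 (SE; limma, adjusted p = 0.00175). In polysomes *Kpna2* also lay higher in every KO library than in every WT library, by 1.42-fold on the means. That change, 0.50 ± 0.19, was not called (limma, adjusted p = 0.144), except with all 12 libraries in one fit.

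*Nup37*, a small member of the Y complex, was at 12.01, 8.61 and 13.1 FPKM in WT and at 23.5, 26.2 and 24.6 FPKM in KO. Every KO library was above every WT library, by 2.205-fold on the means. The log2 change was 1.09 ± 0.22 (SE; limma, adjusted p = 0.00886), and its polysome change was 0.32 ± 0.31 (limma, adjusted p = 0.571).

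*Kpna3* was at 65.3, 69.2 and 65.2 FPKM in the WT RNP pool and at 25.9, 26.3 and 25.3 FPKM in KO. Replicates agreed closely within each genotype and the groups did not overlap, KO being at 0.388 times the WT mean. The log2 change was -1.33 ± 0.14 (SE; limma, adjusted p = 0.000342), so *Kpna3* was the single member called lower in both pools. *Ran* was called higher in both. The share of all genes called in both pools is not given here.

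*Nup98*, a mobile repeat nucleoporin that also serves mRNA export, was at 67.1, 84.7 and 92.2 FPKM in WT and at 52.2, 58.1 and 52.1 FPKM in KO. The KO libraries were all lower. The log2 change was -0.57 ± 0.15 (SE; limma, adjusted p = 0.0276), and the call was lost without any 1 of 5 of the 6 libraries, all but WT replicate 1, with log2 changes of -0.70 to -0.47 over the 6 and an adjusted p of up to 0.0932 (limma).

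*Ran* was at 17.2, 10.4 and 6.56 FPKM in the WT RNP pool and at 25.2, 31.3 and 28.4 FPKM in KO. The groups did not overlap and the log2 change was 1.33 ± 0.31 (SE; limma, adjusted p = 0.0161). The call was lost without KO replicate 2 (1.25, limma adjusted p = 0.0636) and without KO replicate 3 (1.32, limma adjusted p = 0.0520).

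This RNP result of *Ran* changed when a close relative was counted with it. *Rasl2-9* is a gene whose 648 coding bases are 94.6% identical to those of *Ran*. Whether fragments were divided between them was not tested. *Rasl2-9* was at 55.3, 19.4 and 49.5 FPKM in the WT RNP pool and at 6.04, 15.5 and 6.09 FPKM in the KO RNP pool. With the values of *Rasl2-9* scaled by transcript length and added, *Ran* came to 40.8, 18.7 and 27.7 FPKM in WT and to 27.8, 37.9 and 30.95 FPKM in KO, which overlap. The log2 change was then 0.20 ± 0.27 (limma, adjusted p = 0.653). In the polysome pool, where *Rasl2-9* was at 0 in 4 of the 6 libraries and at most 10.2 FPKM, the sum changed by 1.77 ± 0.22 (limma, adjusted p = 0.00359), close to *Ran* alone.

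**Figure D3:**
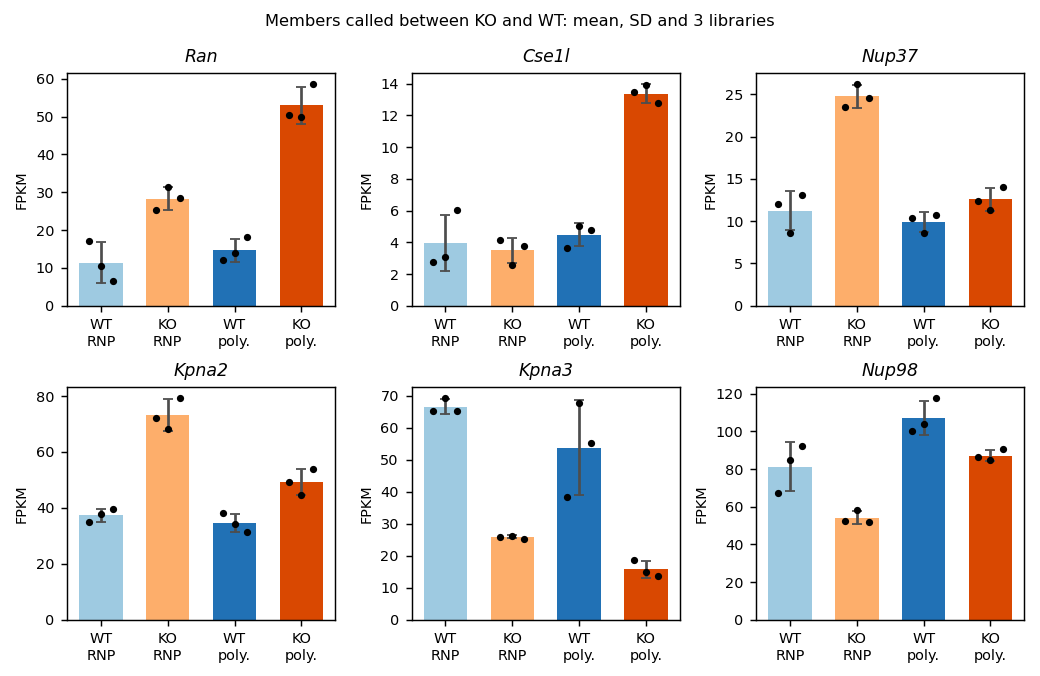
FPKM in each of the 12 libraries for the 6 members called between KO and WT in at least 1 pool. Bars are group means from 0, error bars are SD over 3 libraries and points are libraries. *Kpna3* is lower in KO in both pools, while *Cse1l* in polysomes averages 13.4 FPKM in KO and 4.48 FPKM in WT and its RNP groups overlap.

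The 6 importin alpha members belong to 1 family, so their make-up within a library was compared free of scaling between libraries. *Kpna7* held the largest share in every library. In the RNP pool *Kpna3* held 28.5%, 29.0% and 26.3% of the summed importin alpha level in WT and 9.35%, 9.86% and 9.58% in KO. *Kpna2* held 15.2%, 15.8% and 15.9% in WT and 26.1%, 25.6% and 30.0% in KO. The order of these adaptors was thus reversed between genotypes in this pool, without overlap.

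In the polysome pool *Kpna3* held 19.4% ± 4.20 (SD, n = 3) in WT and 5.60% ± 0.834 in KO. *Kpna6*, an importin alpha of another branch, held 3.22%, 3.17% and 3.26% in WT and 5.57%, 6.34% and 7.10% in KO. *Kpna7* held 64.6% ± 4.23 in WT and 70.3% ± 2.22 in KO, with overlap. In the RNP pool *Kpna7* held 53.0%, 52.8% and 53.4% in WT and 60.6%, 61.9% and 55.5% in KO, without overlap. Its RNP level had a log2 change of 0.33 ± 0.10 and was not called (limma, adjusted p = 0.0507). Over 12 comparisons of 6 members in 2 pools, the smallest exact permutation p was 0.1 (two-sided), which is the smallest possible, and 0.2 after adjustment, so none of these shares could pass a threshold of 0.05. The summed level itself was 229 to 248 FPKM in WT and 264 to 277 FPKM in KO in the RNP pool, and 236 to 312 FPKM and 272 to 286 FPKM in polysomes. *Kpna1* and *Kpna4* held less than 0.5% everywhere.

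**Figure D4:**
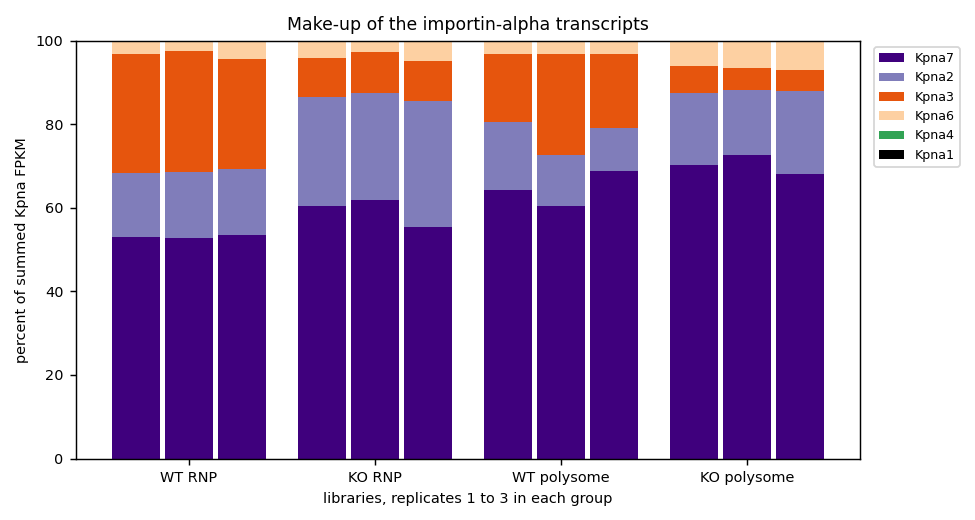
Percent of the summed importin alpha FPKM held by each Kpna gene, as 1 stacked bar from 0 to 100 for each of the 12 libraries. The *Kpna3* band is narrower in all 6 KO libraries than in the WT libraries of the same pool, and *Kpna7* is the widest band throughout.

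Polysomes were next compared with the RNP pool within each genotype. In WT, *Nup35* and *Ranbp2* were higher in polysomes and *Nup50* was lower, 3 of 38 members tested (7.89%), where 14.7% of all genes were called, 7.97% higher and 6.72% lower. *Nup35* was at 81.6, 72.5 and 80.6 FPKM in the RNP pool and at 140, 120 and 148 FPKM in polysomes, a log2 change of 0.79 ± 0.15 (limma, adjusted p = 0.0112). The polysome libraries all exceeded the RNP libraries, but the call was lost in a fit without the intensity trend (limma, adjusted p = 0.0817).

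*Nup50*, a basket protein that helps to take import complexes apart, was at 51.4, 53.5 and 65.1 FPKM in the WT RNP pool and at 27.3, 28.3 and 27.6 FPKM in WT polysomes. The polysome level was 0.489 times the RNP mean and the log2 change was -0.998 ± 0.199 (limma, adjusted p = 0.0121), a call lost without WT RNP replicate 3 (-0.90, limma adjusted p = 0.0575). *Ranbp2*, which forms the cytoplasmic filaments and anchors RANGAP1, was at 1.84, 1.65 and 0.698 FPKM in the RNP pool and at 9.04, 6.53 and 5.47 FPKM in polysomes. Its log2 change was 1.75 ± 0.46 (limma, adjusted p = 0.0356), and the call was lost without any library other than polysome replicate 3, with an adjusted p of up to 0.117 (limma).

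In KO, 10 members were higher in polysomes and 5 were lower, 15 of 40 tested (37.5%), where 29.2% of all genes were called, 15.5% higher and 13.8% lower. The median log2 change of tested members was 0.24 in KO and -0.02 in WT, against -0.04 and -0.09 for all genes. *Ranbp2* was the single member called in both genotypes, and the share of all genes called in both is not given here. These comparisons share libraries with those of KO against WT. Replicate libraries, on log2(FPKM + 1), correlated at 0.883 to 0.885 in WT polysomes and 0.907 to 0.932 in the WT RNP pool. KO replicates agreed more closely, at 0.933 to 0.936 and 0.96 to 0.962. The part of this spread in the counts of calls was not tested.

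The largest KO changes toward polysomes were those of *Ranbp2*, *Cse1l* and *Rangap1*. *Ranbp2* was at 0.914, 2.77 and 2.29 FPKM in the KO RNP pool and at 7.15, 16.8 and 13.4 FPKM in polysomes (log2 change 2.15 ± 0.40, limma, adjusted p = 0.00378). *Cse1l* was at 4.13, 2.60 and 3.74 FPKM in the RNP pool, against 13.5, 13.9 and 12.8 FPKM in polysomes (1.69 ± 0.27, limma, adjusted p = 0.00153). Neither gene's pools overlapped.

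*Rangap1*, which activates GTP hydrolysis by Ran, was at 3.06, 3.49 and 2.62 FPKM in the KO RNP pool and at 9.87, 13.2 and 10.8 FPKM in polysomes (1.60 ± 0.28, limma, adjusted p = 0.00246). In WT its pools were also apart, at 0.585 to 2.27 and 3.27 to 13.5 FPKM, but the spread was wider (1.78 ± 0.57, limma, adjusted p = 0.0730). The other members called toward polysomes were the histone importer *Ipo9*, *Ipo13*, *Kpna6*, the actin exporter *Xpo6*, *Nup214*, *Nup98* and *Ran*, with log2 changes of 0.68 to 1.49. Of these, *Ipo13*, *Kpna6* and *Xpo6* lost the call without at least 4 of the 6 libraries (limma adjusted p of up to 0.127, 0.134 and 0.0962).

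The largest KO changes toward the RNP pool were those of *Nup37*, *Kpna3* and *Nup43*. *Nup37* was at 23.5, 26.2 and 24.6 FPKM in the RNP pool and at 12.4, 11.3 and 14.0 FPKM in polysomes, 0.508 times as high on the means (log2 change -0.93 ± 0.19, limma, adjusted p = 0.00591). *Kpna3* had a log2 change of -0.69 ± 0.19 (limma, adjusted p = 0.0243) and lost the call without any 1 of 5 libraries, all but polysome replicate 1, with an adjusted p of up to 0.0816 (limma). *Nup43*, of the Y complex as *Nup37* is, was at 17.9, 15.2 and 21.3 FPKM in the RNP pool and at 10.1, 12.2 and 10.8 FPKM in polysomes (-0.66 ± 0.22, limma, adjusted p = 0.0490), and lost the call without any 1 of the 6 libraries (limma adjusted p of 0.0550 to 0.185). The channel gene *Nup54* lost its call (-0.50 ± 0.15, limma, adjusted p = 0.0304) without any library but KO polysome replicate 2, with an adjusted p of up to 0.114, and *Kpna2* (-0.56 ± 0.14, limma, adjusted p = 0.0135) without KO RNP replicate 3, with an adjusted p of 0.0642.

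**Figure D5:**
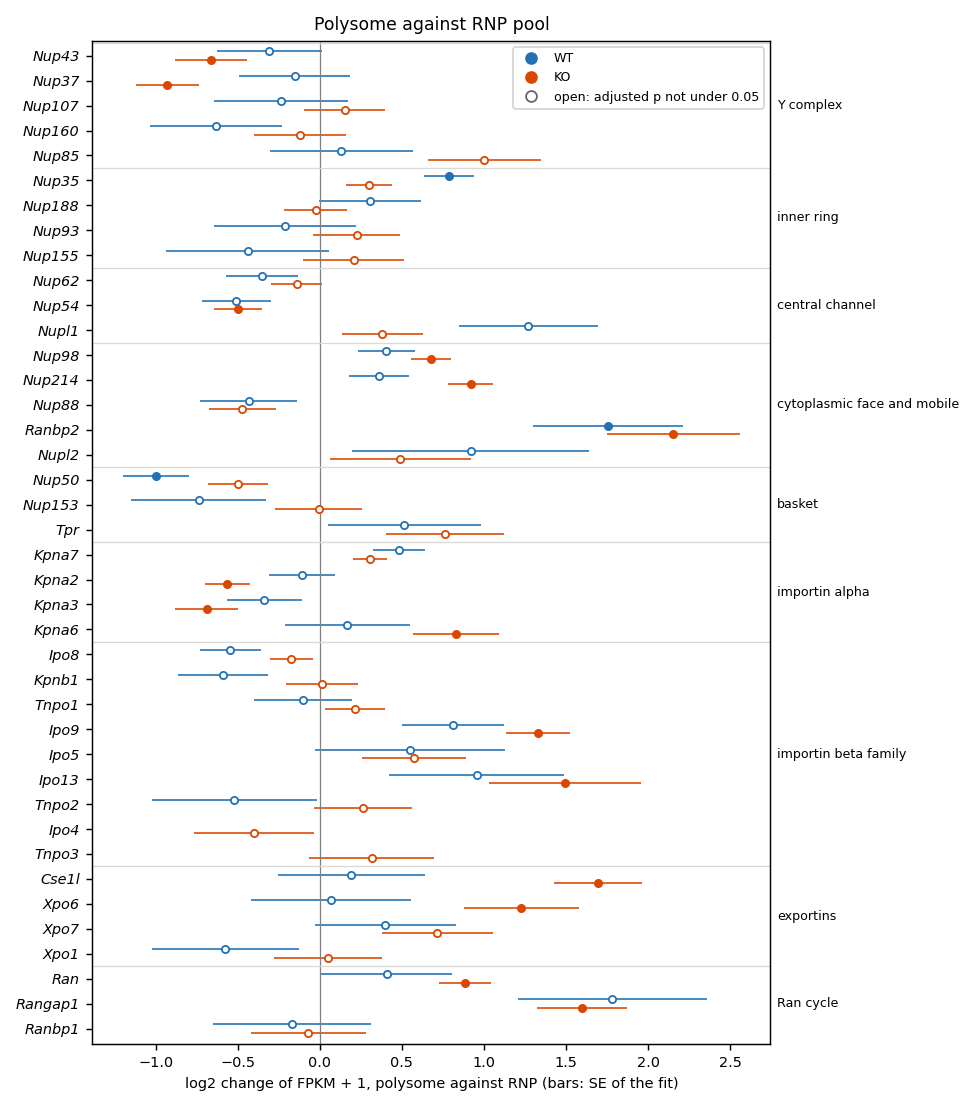
Log2 change of FPKM + 1 in polysomes against the RNP pool for every tested member, with the SE of the fit, in WT and in KO, ordered by role. Filled points passed an adjusted p of 0.05: 3 members in WT and 15 in KO, with *Ranbp2* filled in both.

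Whether the genotype changed the polysome-to-RNP ratio was tested directly, with an interaction term for genotype by pool fitted to the 12 libraries. None of 40 members passed in limma, where 0.237% of all genes did (0.0822% higher, 0.155% lower). At an unadjusted p under 0.05 there were 4 members, against 11.1% of all genes. These were *Cse1l* at a log2 difference of 1.50 ± 0.48, *Nup214*, of the cytoplasmic face, at 0.56 ± 0.21, *Nup35* at -0.49 ± 0.20 and *Nup37* at -0.78 ± 0.34 (limma, adjusted p of 0.242 to 0.413). The 15 calls in KO against 3 in WT are therefore not shown to differ between genotypes for any single member. The median difference was 0.34 for tested members and 0.04 for all genes, and 28 of 40 members lay above 0 against 52.4% of all genes. By role, 4 of 4 exportins, 3 of 3 basket members and 8 of 9 importin beta members lay above 0, but 1 of 4 importin alpha members, 2 of 4 of the inner ring, 3 of 5 each of the Y complex and the cytoplasmic face, and 2 of 3 each of the channel and the Ran cycle. With *Rasl2-9* added, the difference for *Ran* went from 0.48 ± 0.41 (limma, adjusted p = 0.724) to 1.57 ± 0.36 (limma, adjusted p = 0.112).

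Of 28 pore and transport genes under other names, 26 were tested between genotypes in polysomes, where 0 were called by limma and 0 had an unadjusted p under 0.05 (10.4% and 26.3% of all genes). In the RNP pool 4 of 28 were called lower in KO and 0 higher, where 10.2% of all genes were called lower and 10.5% higher. These were *Pom121*, a membrane nucleoporin, at a log2 change of -0.85 ± 0.21, *Seh1l*, of the Y complex, at -1.53 ± 0.32, *Ranbp3*, a cofactor of *Xpo1*, at -0.46 ± 0.10 (limma, adjusted p of 0.00989 to 0.0191), and *Nxt2*, of the mRNA export machinery. *Nxt2* was at 3.42, 4.54 and 5.05 FPKM in the WT RNP pool and was listed at 0 in the other 9 libraries, so it passed the filter on low values through that group alone and its call carries no weight. Within the Y complex *Nup37* thus rose and *Seh1l* fell in the RNP pool. *Nup107*, *Nup160*, *Nup85* and *Nup43* did not pass, and *Nup133* was not tested.

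Of 16 genes of the nuclear lamina and envelope, 12 were tested between genotypes. In polysomes 1 was called lower and 0 higher, against 4.73% and 5.64% of all genes. In the RNP pool 1 was called lower and 1 higher, against 10.2% and 10.5%. An unadjusted p under 0.05 (limma) was reached by 1 gene in polysomes and 7 in the RNP pool, against 26.3% and 34.1% of all genes. *Tor1a*, an ATPase of the endoplasmic reticulum lumen and nuclear envelope, fell in polysomes (-1.10 ± 0.16, limma, adjusted p = 0.00565) and in the RNP pool (-1.32 ± 0.11, limma, adjusted p = 0.000137). *Lmnb2*, a B-type lamin, rose in the RNP pool (1.27 ± 0.36, limma, adjusted p = 0.0336). Between pools, 7 of 26 tested pore genes with other names were called in WT, against 14.7% of all genes (3 toward polysomes, 4 toward the RNP pool, *Nxt2* among them). In KO 11 of 27 were called (6 and 5), against 29.2%. Of 12 tested lamina and envelope genes, 1 was called toward polysomes and 1 toward the RNP pool in WT, and 1 and 3 in KO. *Syne2* was called toward polysomes in both genotypes (1.93 ± 0.32 in WT and 2.24 ± 0.23 in KO). *Tor1a* was called toward the RNP pool in both (-0.95 ± 0.13 and -0.72 ± 0.15). For the ratio limma called none of either list, with 1 of 28 (*Nxt2*) and 2 of 12 genes at an unadjusted p under 0.05, against 11.1% of all genes. Of the pore genes with other names, 3 were called toward polysomes in both genotypes, namely *Sec13*, a Y complex member that also serves vesicle coats (1.11 ± 0.21 in WT and 1.62 ± 0.20 in KO, limma, adjusted p = 0.0104 and 0.000354), *Ddx19a*, a helicase of mRNA export (1.83 ± 0.34 and 1.78 ± 0.17, limma, adjusted p = 0.00910 and 9.06e-05), and *Thoc3*, of the complex that couples transcription to mRNA export (0.93 ± 0.25 and 1.46 ± 0.21, limma, adjusted p = 0.0406 and 0.00102). Another 3 were called toward the RNP pool in both genotypes, namely *Rae1* and *Gle1*, both of mRNA export, and *Ranbp3*. Their log2 changes were -1.26 to -0.67 in WT and -1.06 to -0.52 in KO (limma, adjusted p of up to 0.0296). The share of all genes called in both genotypes is not given here, so these counts stand without a background.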

How the data were processed

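RNA from sucrose-gradient pools of GV oocytes was amplified by Smart-seq2 and sequenced. The authors deposited FPKM values per gene symbol, and their processing notes name TopHat2 2.0.13, Cufflinks 2.2.1, Cuffnorm and Cuffdiff with the mm10 build. Their table also holds log2 changes, p-values and q-values of their own comparisons, which were not used here. Sources differ on the kit that made the libraries, and the annotation release and strand setting are not given in the sources used here, so overlapping genes are uncertain. Libraries were grouped by the genotype and pool in the labels.

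From these values log2(FPKM + 1) was tested with limma 3.58.1 in R 4.3.3 (empirical Bayes with an intensity trend), on genes with at least 1 FPKM in at least 3 libraries of the comparison, with Benjamini-Hochberg adjustment over all genes at 0.05. A fold change on this scale understates the change of low genes. The design had no block. Same-numbered replicates did not deviate together (correlations of -0.0207 to 0.0255). Exact permutation tests used scipy 1.17.1. Gene regions came from RefSeq (GRCm38.p6; 52 of 53 symbols matched), transcripts and 3′ ends from GENCODE M21 on GRCm38 (39 of 40 tested members matched), and crosslink sequences from the study's supplement, located on those transcripts. Depth assumed an effective length of the annotated length less 200 bases. Scripts were tested on simulated data.

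Named with full values are members called between genotypes or in the ratio and, among members called between pools, the 3 largest changes in each direction and genotype. The highest member of each role is named with at least its mean or range of levels. A fit not given for such a member does not mean that its level was unchanged. *Rasl2-9* was named after its values were seen. The members, lists and tests were chosen with earlier results of these data known. Alternatives were pseudocounts of 0.1 and 5, no filter and a filter at 5 FPKM, median rescaling, quantile normalization, a replicate block, a fit without the intensity trend, all 12 libraries in one fit, each library left out, importin alpha shares over members with a mean of at least 1 FPKM, and, chosen after seeing the data, *Rasl2-9* added to *Ran*.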

Additional observations from a re-analysis of the deposited data

How the results depend on the processing

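Of 85 recomputed counts of members called, 77 stayed within 1.5 times the reported count. With all 12 libraries in one fit, 5 members were called between genotypes in polysomes and 8 between pools in WT, and with no filter on low values 3 were called between genotypes in the RNP pool. Leaving out 1 library at a time gave 2 members called between genotypes in polysomes, 3 to 5 in the RNP pool, 1 to 6 between pools in WT and 9 to 12 between pools in KO. The lowest of these in WT, 1, came without RNP replicate 3 and the highest, 6, without polysome replicate 3. In KO the lowest, 9, came without polysome replicate 3, and in the RNP pool 3 came without KO replicate 2 or without KO replicate 3. The cause of these shifts was not tested. The ratio gave 0 members under every alternative run. The change of *Kpna3* in both pools, of *Ran* in polysomes and of *Kpna2* and *Nup37* in the RNP pool kept direction and call under every alternative run. The replicate block, whose numbers the data do not show to pair libraries, gave 2, 5, 2, 13 and 0 members called, in the order polysome, RNP, pools in WT, pools in KO and ratio. In WT the median polysome-to-RNP change of members less that of all genes, 0.08, became -0.031 with the filter at 5 FPKM and -0.012 with *Rasl2-9* added to *Ran*, and the WT change of *Ran* between pools then became -0.83. The RNP share of *Kpna6* among importin alpha genes, 0.31 percentage points higher in KO, ranged from -0.18 to 0.91 without 1 library. FPKM keeps no counts, and levels below 1 FPKM rest on few fragments.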
